A study of Cavia porcellus with 9 samples.

Results

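Heat shock proteins and J-domain proteins are the molecular chaperones that fold new proteins, hold damaged ones in solution and hand them on for refolding or degradation. In the HSP70 cycle a J-domain protein (DNAJ) brings a client and triggers ATP hydrolysis by HSP70, a nucleotide exchange factor such as an HSP110 releases it, and many clients then pass to HSP90. Small heat shock proteins bind unfolding clients without ATP, and heat shock factor 1 raises many of the cytosolic chaperones when unfolded proteins accumulate. In the retina this machinery is known for its work in photoreceptors, which make and renew large amounts of phototransduction proteins, and a synaptic J-domain protein serves neurotransmitter release at nerve terminals.

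The genes described here were taken by symbol from the deposited counts: names starting Hspa, Hspb, Hsph, Hsp90, Hspd, Hspe, Dnaja, Dnajb or Dnajc, with names starting Hspbap left out. The rule found 69 of 19962 genes, and 64 of them had enough counts to be among the 15469 genes tested. It uses names and overall abundance, and no difference between lights. The 64 hold 4 cytosolic HSP70 genes, 3 HSP110 genes, 3 divergent HSP70 genes, 2 cytosolic HSP90 genes, the HSP70 and HSP90 of the endoplasmic reticulum (ER), 2 mitochondrial chaperones, 8 small heat shock proteins, 4 DNAJA, 11 DNAJB and 24 DNAJC genes, and Hspbp1, a nucleotide exchange factor of HSP70. A search by name also takes Hspb11, which is better known as a subunit of intraflagellar transport. The stress-inducible Hspa1a and Hspa1b and the mitochondrial co-chaperonin Hspe1 are not analysed here.

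The RNA came from whole retinas of male tri-color Dunkin-Hartley guinea pigs aged 12 weeks. Animals obtained at 2 weeks of age had been divided at random among green, blue and white light, on equal periods of light and dark, for 8 weeks. The labels name no genetic change or drug in any group, and white light is the reference here. The study's title places the comparison in the question of how wavelength guides refractive development. Each group has 3 libraries, but they carry only 2 animal labels a group: green libraries 1 and 2, blue libraries 2 and 3, and white libraries 1 and 2 share an animal number. The titles of green libraries 1 and 2 also name the same eye, and those of green library 1 and white library 3 end in -B, whose meaning is not stated. Whether blue library 1 (2R-23) and white library 3 (R-23) come from the same animal is not stated either, and they were taken as different. The p-values treat libraries as independent, so they measure the spread between libraries, part of which is a spread within an animal.

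Library totals ranged from 62155041 to 74979806 counts, and levels are given in CPM, each gene's counts as a rate per library after TMM scaling (counts per 1000000). Photoreceptor genes marked every library as retina: the summed level of the cone markers lay between 1594 and 1967 CPM. Pigment epithelium genes, from the layer behind the retina, had summed levels of 267 to 763 CPM in green, 551 to 754 in blue and 334 to 787 in white. The ranges overlapped only through green library 2: green libraries 1 and 3, at 282 and 267 CPM, lay below every blue and white library. Libraries that share an animal number differed as widely, at 282 and 763 CPM in green libraries 1 and 2 and 392 and 787 in white libraries 1 and 2. For green minus white 11 of 12 markers had estimates below 0 and 1 above (median -0.37). For green minus blue 10 lay below and 2 above (median -0.56), and 0 of 12 reached an adjusted p under 0.05 in either (edgeR). In bulk retina fewer cells of a type in the sample and less RNA per cell cannot be told apart.

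No member differed between lights past the threshold (edgeR's quasi-likelihood test, Benjamini-Hochberg adjusted p under 0.05 over all genes tested). For green against white light 0 of 64 passed, where 0.00646% of all genes did. For blue against white 0 of 64 passed, again beside 0.00646%, and for green against blue 0 of 64 passed beside 0%. The joint test for any difference among the lights called 0 of 64 beside 0.00646%. DESeq2 also called 0 members in each comparison, while it called 0.155% of all genes for green against white, 0.181% for blue against white and 0.359% for green against blue. The smallest adjusted p of a member in edgeR was 0.850 for green against white (Dnajb11), 1 for blue against white and 0.578 for green against blue (Hsp90aa1).

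At an unadjusted p under 0.05 the members were no more frequent than other genes. For green against white 3 of 64 passed (4.69%, beside 5.81% of all genes): Dnajb11 on the lower side and Dnajb13 and Dnajc4 on the higher. For blue against white 2 of 64 passed (3.12%, beside 4.45%), Dnajc4 higher and Hsp90aa1 lower. For green against blue 3 of 64 passed (4.69%, beside 7.18%), Hsp90aa1 higher and Hspb1 and Dnajc19 lower. In the joint test only Hsp90aa1 passed (1.56% of members, beside 5.94%; unadjusted p = 0.00927, adjusted p = 0.733 in edgeR).

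Sets of 3 libraries did not overlap for 3 members between green and white light (4.69%, beside 10.1% of all genes). The count was 8 between blue and white (12.5%, beside 9.9%) and 7 between green and blue (10.9%, beside 14.2%). These shares lie near or under those of all genes. The middle member was also close to no difference, with a median log2 difference of -0.02 for green minus white (all genes 0.01), -0.04 for blue minus white (all genes 0.0048) and 0.01 for green minus blue (all genes -0.0025). In blue against white 41 of 64 members lay below 0 and 23 above (35.9% above, where 51.5% of all genes were above).

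**Figure D1:**
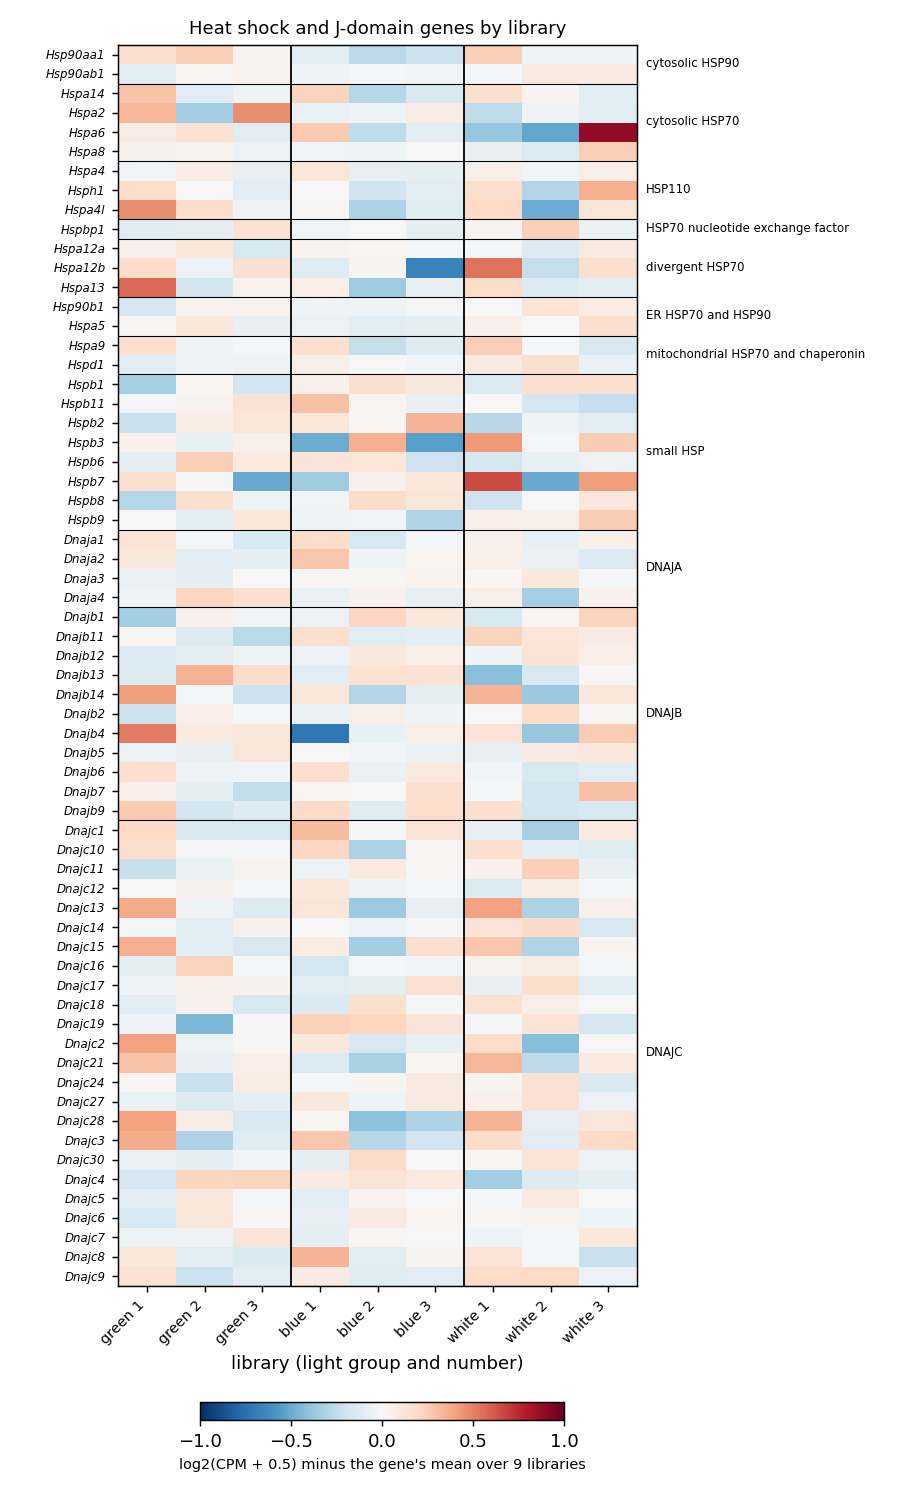
Level of each of the 64 tested genes (rows, grouped by role) in each of the 9 libraries (columns), as log2(CPM + 0.5) minus the gene's own mean; red is above and blue below that mean. Most rows are pale; the strong cells sit in single libraries, such as white 3 for Hspa6 (4.75 CPM) and blue 1 for Dnajb4 (19.5 CPM), and few rows change colour at the vertical lines between lights.

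Of the 2 cytosolic HSP90 genes, 1 had the smallest p of any member and the other the narrowest range across libraries. Hsp90aa1, the inducible HSP90 alpha, measured 1742, 1826 and 1585 CPM under green light, 1437, 1287 and 1335 in blue and 1823, 1506 and 1504 under white. All blue libraries lay below all green and all white ones, while green and white overlapped. Its log2 difference was 0.34 ± 0.09 (SE) for green minus blue, with 86 genes at a smaller p (edgeR unadjusted p = 0.00325, adjusted p = 0.578; DESeq2 adjusted p = 0.105). For blue minus white it was -0.25 ± 0.09 (edgeR unadjusted p = 0.0194, adjusted p = 1; -0.16 without white library 1), and for green minus white 0.09 ± 0.09. With pigment epithelium level as a covariate the green minus blue difference was 0.38, and the smallest adjusted p of any member in that comparison was 0.998 (edgeR). With counts summed per animal label that smallest adjusted p was 0.979. An exact two-sided permutation test of the log2 CPM values gave 0.1 for green against blue, the smallest p that 3 against 3 libraries allow. That value restates that the libraries do not overlap, which held for 14.2% of all genes in this comparison.

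Hsp90ab1, the constitutive HSP90 beta, had the narrowest range of all members. It was at 891, 966 and 982 CPM in green, 928, 943 and 940 in blue and 946, 1017 and 1012 under white. Its highest library was 1.14 times its lowest, and its green minus blue log2 difference was 0.01 ± 0.07 (SE). The count ratio of Hsp90aa1 to Hsp90ab1, chosen after their values were seen and not corrected for length, was 1.96, 1.89 and 1.61 in green, 1.55, 1.36 and 1.42 in blue and 1.93, 1.48 and 1.49 under white. Every green ratio exceeded every blue one (exact two-sided permutation p = 0.1, the smallest possible), and white spanned both (0.3 against green and 0.4 against blue, n = 3 a group).

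**Figure D2:**
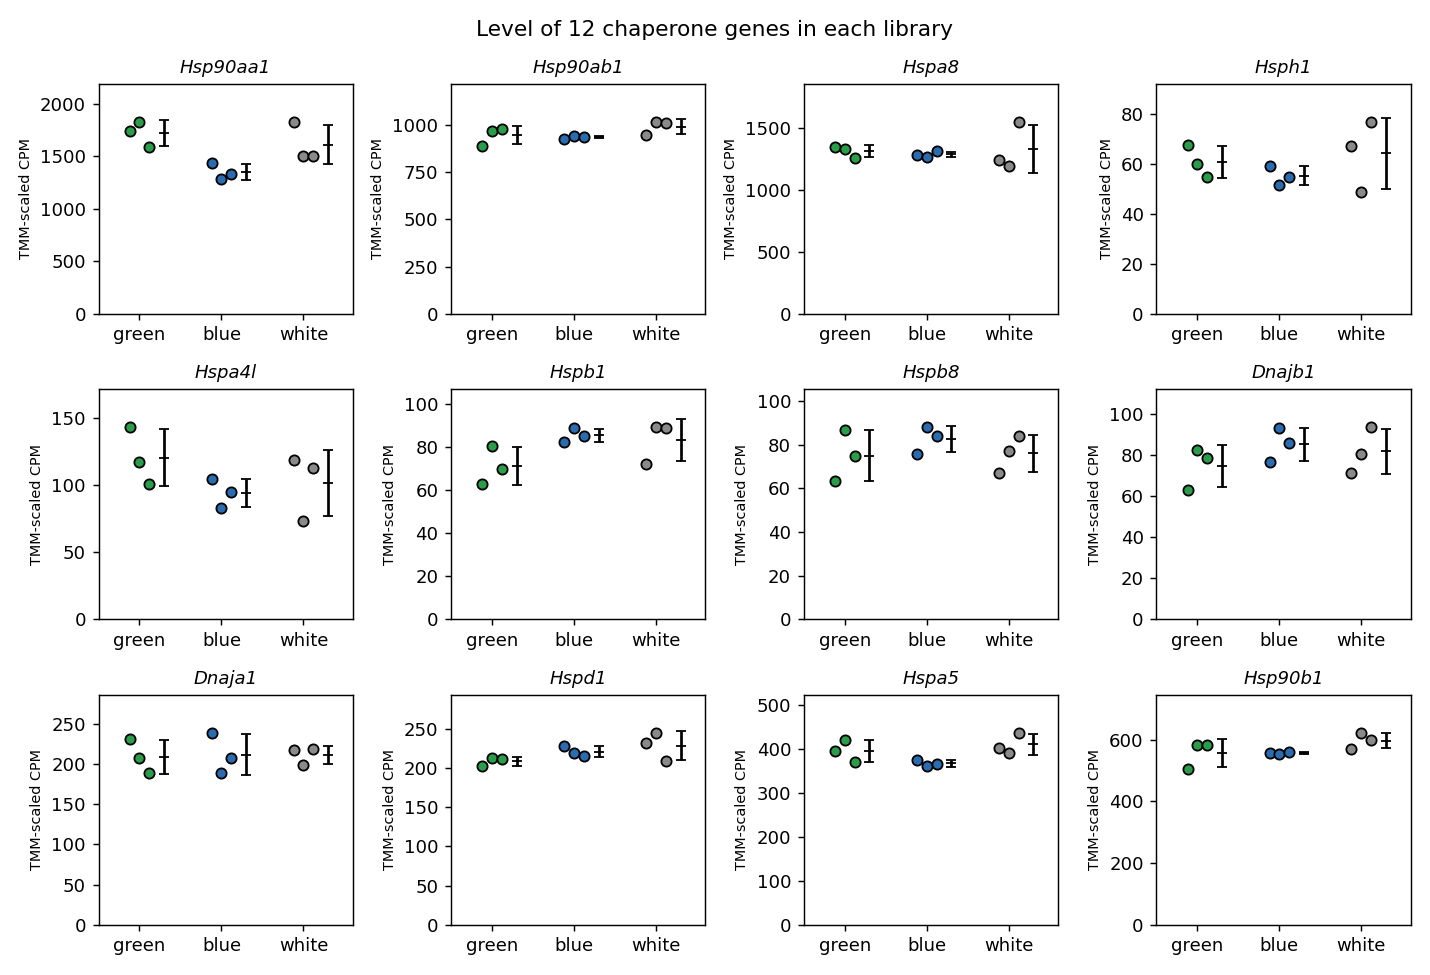
TMM-scaled CPM (vertical axes, from 0) of 12 chaperone genes in each library (points) by light, with the mean and SD of 3 libraries beside them as a bar. Hsp90aa1 is the panel in which the blue points, 1287 to 1437 CPM, sit below all others; in Hspa8 and Hsph1 the white points alone spread widely.

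Hspa8, the constitutive HSC70 that also strips clathrin coats, was at 1312 ± 48.6 CPM in green, 1287 ± 21.9 in blue and 1327 ± 194 in white (SD, n = 3). White library 3 alone stood high, at 1549 CPM, and the other 8 lay between 1189 and 1345. Hspa6, a low-abundance HSP70 that is strongly stress-inducible in humans, showed the same library at the top: 4.75 CPM, against 1.47 to 2.89 in the other 8. Hspa2, an HSP70 best known from testis, was at 44.6, 27.6 and 49.0 CPM in green and 29.6 to 37.2 in the other lights, so green held both its highest and its lowest values. Its green minus white log2 difference was 0.33 ± 0.17 (SE; edgeR unadjusted p = 0.0853).

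Of the 3 HSP110 genes, which reset HSP70 by nucleotide exchange, Hspa4 was narrow, at 339 ± 19.0, 338 ± 28.7 and 349 ± 12.5 CPM in green, blue and white (SD, n = 3), and Hspa4l and Hsph1 spread more widely. Hspa4l was at 143, 117 and 101 CPM in green, 104, 82.8 and 94.9 in blue and 119, 73.3 and 113 under white. Its green minus blue log2 difference of 0.36 ± 0.18 did not pass (edgeR unadjusted p = 0.070), and its lowest green library lay below its highest blue one. Hsph1, the heat-inducible HSP105, was at 67.5, 59.8 and 54.9 CPM in green, 59.3, 51.7 and 54.9 in blue and 67.2, 48.6 and 76.8 under white. The 119 and 73.3 CPM of Hspa4l and the 67.2 and 48.6 of Hsph1 come from white libraries 1 and 2, which carry the same animal number. For green minus blue all 3 HSP110 genes and all 4 cytosolic HSP70 genes had estimates above 0, with medians of 0.14 and 0.09. Of all genes 49.4% were above 0. Neither class had a member at an unadjusted p under 0.05 in that comparison (edgeR). Some estimates were small beside their SE, such as 0.0045 ± 0.08 for Hspa4 and 0.03 ± 0.09 for Hspa8.

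Of the list of heat-inducible chaperones, 9 of 12 genes were measured, and no direction was common to them. The list counts the constitutive Hspa8 and leaves out Hspa6, so its counts and medians are not those of inducible genes alone. For green minus white 2 lay above 0 and 7 below (median -0.02), for blue minus white 3 and 6 (median -0.04), and for green minus blue 4 and 5 (median -0.02). Dnajb1, the main HSP40 of the heat shock response, was at 63.0, 82.4 and 78.4 CPM in green, 76.7, 92.9 and 85.9 in blue and 71.3, 80.4 and 93.3 under white. Its green minus blue estimate was therefore negative, at -0.19 ± 0.13 (SE), where that of Hsp90aa1 was positive. Dnaja1, another HSP40 that serves HSC70, was at 209 ± 21.2, 212 ± 25.5 and 212 ± 11.2 CPM in green, blue and white (SD, n = 3). Hspd1, the mitochondrial chaperonin HSP60, was at 209 ± 5.75, 221 ± 6.68 and 229 ± 18.1 CPM in the same order.

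Among the small heat shock proteins 5 of 8 had estimates below 0 for green minus blue and 3 above, with a median of -0.08. Of all genes 49.4% were above 0, and the 8 include Hspb11 and the barely detected Hspb3, Hspb7 and Hspb9. Hspb1 (HSP27), which binds unfolding proteins and actin, was at 62.9, 80.5 and 70.0 CPM in green, 82.4, 88.8 and 85.4 in blue and 72.1, 89.3 and 89.2 under white. All green libraries lay below all blue ones, and green overlapped white. The log2 difference was -0.27 ± 0.11 for green minus blue (edgeR unadjusted p = 0.035, adjusted p = 0.669) and -0.23 ± 0.11 for green minus white (unadjusted p = 0.0606). Without green library 1, the lowest, the green minus blue difference was -0.18, and with pigment epithelium level as a covariate it was -0.16. Müller glia markers, from the supporting glia of the retina, had 7 of 8 estimates below 0 for green minus blue. Of these, Clu, Apoe and Crym reached an unadjusted p under 0.05 (edgeR, 7.18% of all genes). The summed level of the markers was 7995 to 8925 CPM in green and 9139 to 10288 in blue. For green minus white 3 of 8 markers lay above 0 and 5 below (median -0.05), where Hspb1 was at -0.23. For blue minus white 7 lay above and 1 below (median 0.16), where Hspb1 was at 0.03. The part of glial RNA in the Hspb1 values and in the other differences between green and blue was not tested.

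Hspb8, a partner of the co-chaperone Bag3, followed Hspb1 in having its lowest value in green library 1 (63.5 CPM, and 67.1 to 88.0 in the others), with no group separate. Hspb2, a muscle-associated member, was at 7.45, 6.90 and 8.79 CPM in blue and 5.54, 6.59 and 6.27 under white, which do not overlap (log2 0.33 ± 0.16; edgeR unadjusted p = 0.0606). Hspb11 was at 15.5 ± 2.16 CPM in blue and 13.2 ± 1.13 in white (SD, n = 3). Hspb3, Hspb7 and Hspb9 sat at the edge of detection, with 10 to 52, 0 to 42 and 4 to 20 counts a library, and their wide ranges rest on those counts. Just outside the filter, Dnajc5g had at most 14 counts in a library, Dnajb8 had 5 and Dnajc22 had 4, each in 1 library, and Dnajb3 and Dnajc5b had none; a count of 0 allows up to 0.0400 to 0.0483 CPM, for counting error only.

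In the ER, the 2 large chaperones had estimates below 0 in both coloured lights. Hspa5 (BiP), the ER HSP70 and a regulator of the unfolded protein response, was at 394, 421 and 370 CPM in green, 376, 361 and 366 in blue and 403, 392 and 436 under white. Blue lay wholly below white, at a log2 difference of -0.16 ± 0.07 (edgeR unadjusted p = 0.0546), and green overlapped white. Hsp90b1 (GRP94), the ER HSP90, was at 504, 584 and 582 CPM in green, 557, 554 and 562 in blue and 571, 622 and 598 under white, and again only blue lay wholly below white. Dnajb11 (ERdj3), which delivers unfolded clients to BiP, was at 51.1, 46.0 and 41.8 CPM in green, 56.3, 46.5 and 47.4 in blue and 58.8, 54.8 and 53.2 under white. All green libraries lay below all white ones, with a log2 difference of -0.27 ± 0.11 (edgeR unadjusted p = 0.0281, adjusted p = 0.850). The ER-resident list as a whole was split, with 4 of 8 members above 0 for green minus white and 2 of 8 for blue minus white. Dnajc1, an ER membrane J-protein, lay on the higher side in blue, at 20.3 ± 2.43 CPM against 17.02 ± 2.54 in white (SD, n = 3).

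Among other genes of the unfolded protein response, 0 of 20 passed in edgeR in any comparison. At an unadjusted p under 0.05, 5 lay lower in green than in white (Calr, Creld2, Hyou1, Pdia4 and Sdf2l1) and 1 higher (Ern1), where 5.81% of all genes passed in either direction, and 15 of 20 estimates were below 0, with a median of -0.09. Creld2, a secreted ER stress protein, was at 27.3 ± 2.70 CPM in green, 29.0 ± 2.75 in blue and 40.4 ± 6.29 in white (SD, n = 3). Its green minus white log2 difference was -0.57 ± 0.13 (SE), which did not pass in edgeR (adjusted p = 0.696) and passed in DESeq2 (adjusted p = 0.0416). Calr, the ER lectin chaperone calreticulin, was at 671 ± 40.8, 719 ± 9.99 and 798 ± 40.3 CPM in green, blue and white. For blue against white 2 of the 20 (Creld2 and Hyou1, the ER HSP110) reached that unadjusted p, both lower, where 4.45% of all genes did.

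**Figure D3:**
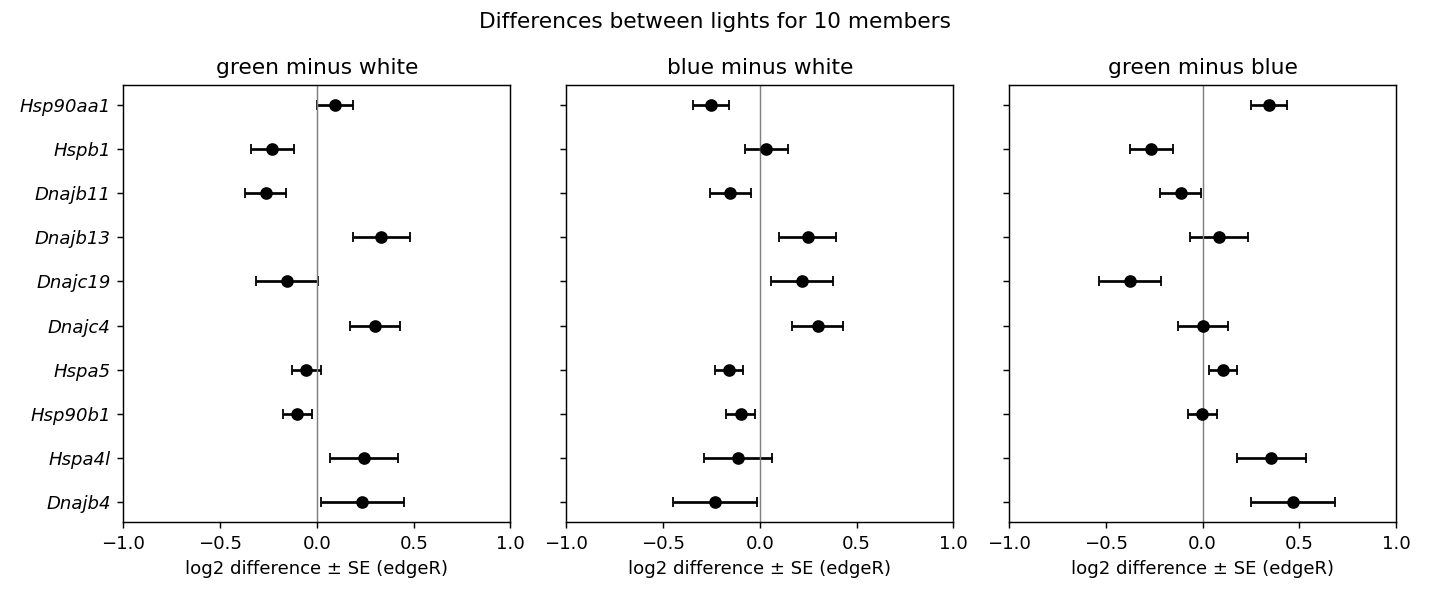
Fitted log2 differences (points, with SE bars) of 10 members in the 3 comparisons, from edgeR. The members are those with an unadjusted p under 0.05 in some comparison plus Hspa5, Hsp90b1, Hspa4l and Dnajb4. Hsp90aa1 lies at 0.34 for green minus blue and Hspb1 at -0.27, and no point reaches 0.5 in either direction.

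Mitochondrial members shared no direction: 3 of 9 lay above 0 against white in either coloured light. Dnajc4, a mitochondrial J-protein, was at 14.1, 18.6 and 18.6 CPM in green, 16.8, 17.4 and 17.03 in blue and 12.4, 14.5 and 14.8 under white. Blue lay wholly above white, and green overlapped white through library 1. The log2 difference from white was 0.30 ± 0.13 in each colour (edgeR unadjusted p = 0.0417 in green and 0.0425 in blue, adjusted p = 0.852 and 1); both use the same white libraries. Without both -B libraries the green minus white difference was 0.46. Dnajc19, a subunit of the import motor of the inner membrane, was at 6.80, 5.004 and 6.89 CPM in green, 8.32, 8.20 and 7.70 in blue and 6.90, 7.76 and 6.16 under white. Green lay wholly below blue, at -0.37 ± 0.16 (edgeR unadjusted p = 0.0397, adjusted p = 0.683); without green library 2, its lowest, the difference was -0.24. Dnajc28 was at 2.36 ± 0.561, 1.75 ± 0.361 and 2.39 ± 0.426 CPM in green, blue and white (SD, n = 3), with overlap. Of 9 other genes of mitochondrial protein quality control, 0 reached an unadjusted p under 0.05 in any comparison.

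Among J-domain proteins with known work in neurons and retina, Dnajc5, Dnajc6 and Dnajb2 differed little between lights. Dnajc5, the cysteine string protein of synaptic vesicles, was at 657 ± 52.0 CPM in green, 647 ± 34.0 in blue and 671 ± 29.4 in white (SD, n = 3). Dnajc6, the neuronal auxilin that uncoats clathrin vesicles with HSC70, was at 239 ± 22.5, 241 ± 13.9 and 239 ± 6.34 CPM. Dnajb2, a neuronal J-protein that sends clients to the proteasome, was at 246 ± 23.7, 252 ± 11.1 and 267 ± 20.5 CPM. Their log2 differences from white lay between -0.12 and 0.01, each with an SE of 0.08 to 0.09. Dnajc17, a splicing-linked J-protein, was at 8.80 ± 0.291, 8.62 ± 0.947 and 8.72 ± 1.03 CPM, Dnajc30, a mitochondrial J-protein linked to optic neuropathy, at 9.54 ± 0.264, 10.3 ± 1.08 and 10.2 ± 0.718, and Dnajc13, an endosomal J-protein, at 26.8 ± 5.27, 23.7 ± 3.97 and 26.6 ± 6.69, in green, blue and white. For Dnajc13 the blue minus white log2 difference was -0.17 ± 0.20 (SE), an error too wide to call the difference small.

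Dnajb6, a suppressor of aggregation, was at 133, 112 and 126 CPM in blue and 115, 105 and 110 under white, which overlap (log2 0.17 ± 0.09). Dnajb13, a radial spoke protein of motile cilia, was at 23.5, 32.9 and 29.5 CPM in green and 19.2, 23.03 and 26.0 in white, also with overlap (log2 0.33 ± 0.15; edgeR unadjusted p = 0.0464, adjusted p = 0.852). That difference was 0.22 without green library 2 and also without white library 1, and 0.55 without both libraries titled -B, green 1 and white 3. Dnajb12 and Dnajc27 were lower in all green than in all white libraries, by small amounts (log2 -0.15 ± 0.08 for both): Dnajb12, an ER membrane J-protein, was at 86.3 to 90.9 against 91.3 to 104 CPM, and Dnajc27, a Rab-like GTPase with a J domain, at 70.7 to 74.1 against 74.8 to 86.4. Dnajb4 was at 46.5, 34.6 and 35.1 CPM in green, 19.5, 30.7 and 33.9 in blue and 35.3, 24.8 and 38.6 under white. Green lay above blue without overlap, but blue library 1 alone stood far down, and the difference of 0.47 ± 0.22 did not pass (edgeR unadjusted p = 0.0537).

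The highest library was a median of 1.40 times the lowest for the members and 1.45 times for all genes tested. Restricted to genes at 10 CPM or more, the medians were 1.34 for 51 members and 1.33 for 9806 genes. After Hsp90ab1, the narrowest members were Dnaja3 (1.15 times), a mitochondrial J-protein, and Dnajb5 (1.15 times). The widest with counts in every library were Hspb9 (5.48 times), Hspb3 (5.22) and Hspa6 (3.22). The median SE of a member was 0.13 in log2 units in each comparison, and among members at 10 CPM or more the largest difference was 0.33 for green minus white, 0.30 for blue minus white and 0.47 for green minus blue, in absolute log2 units.

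**Figure D4:**
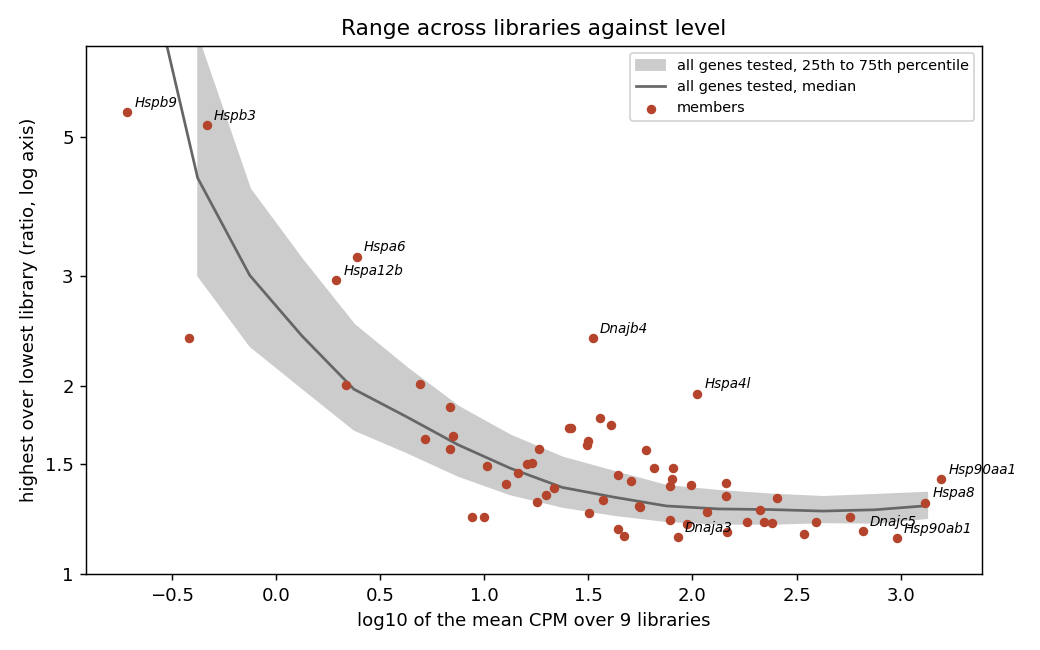
Ratio of the highest to the lowest of 9 libraries (vertical, log axis) against log10 of mean CPM (horizontal) for 63 members, with the median and the middle 50% of all genes tested in grey. Hspb7, which has libraries at 0, is left out. The abundant genes Hsp90ab1 and Dnajc5 lie near 1.14 and 1.17, Hsp90aa1 at 1.42, and the low genes Hspb3 and Hspb9 above 5.

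White library 2 and green library 1 stood most often at an end of the order. White library 2 was highest for 14 of 64 members and lowest for 9 (21.9% and 14.1%, beside 14.3% and 16.7% of all genes). Green library 1 was lowest for 12 (18.8%, beside 19.1% of all genes), among them Hspb1, Hspb8, Dnajb1, Hsp90ab1, Hsp90b1, Hspd1, Dnajc5 and Dnajc6, and highest for 10 (15.6%, beside 16.9%), among them Hspa4l, Dnajb4, Dnajb9 and Dnajc3. White library 2 was the highest for 8 of those 12; of all genes lowest in green library 1, 36.3% were highest in white library 2. Of the 10 members highest in green library 1, 3 were lowest in white library 2, where 45.5% of such genes were. Pigment epithelium sums were 282 CPM in green library 1 and 787 in white library 2, but also 267 in green library 3, which was at an end for 9 members, and 763 in green library 2; their part in this order was not tested. The median absolute log2 difference between libraries over the members averaged 0.16 over 3 pairs sharing an animal number, from 0.094 in blue, the closest pair of all, through 0.18 in white to 0.22 in green. It averaged 0.16 over 6 pairs of the same light and other animals and 0.15 over 27 pairs of different lights.

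Regulators and partners of these chaperones also had no call in edgeR. Hsf1, the master heat shock factor, was at 81.4 ± 5.41 CPM in green, 74.96 ± 3.94 in blue and 81.3 ± 3.59 in white (SD, n = 3). Of Hsf1, Hsf2, Hsf4 and Hsbp1, a protein that binds the factors, only Hsf4, the lens-associated factor, reached an unadjusted p under 0.05, higher in green than in white (log2 0.52 ± 0.21; edgeR unadjusted p = 0.0279, adjusted p = 0.850). Lens markers lay on the same side: 10 of 11 had estimates above 0 for green minus white, 7 of them at an unadjusted p under 0.05 (edgeR; 5.81% of all genes). For blue minus white 10 of 11 were also above 0, 5 of them at an unadjusted p under 0.05 (4.45% of all genes). Their summed levels were 58.1 to 66.2 CPM in green, 45.4 to 69.5 in blue and 29.9 to 56.3 in white. The part of lens RNA was not tested. Cryaa, a lens small heat shock protein outside the name rule, was at 25.8 ± 6.41 CPM in green, 15.9 ± 8.30 in blue and 7.07 ± 9.61 in white (SD, n = 3; green minus white log2 1.86 ± 0.84, edgeR adjusted p = 0.852). Of 24 co-chaperones of HSP70 and HSP90, only Fkbp4, the HSP90-binding immunophilin FKBP52, reached an unadjusted p under 0.05 (edgeR). It did so in green and in blue against white, where 5.81% and 4.45% of all genes did. It was at 145 ± 12.1, 143 ± 2.02 and 169 ± 10.1 CPM in green, blue and white (log2 -0.22 ± 0.08 for green and -0.24 ± 0.08 for blue minus white; edgeR adjusted p = 0.839 and 0.975). Of 13 genes of the TRiC chaperonin and prefoldin, Pfdn1 and Pfdn6 lay lower in green than in blue at an unadjusted p under 0.05 (edgeR, 7.18% of all genes).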

How the data were processed

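Whole-retina RNA was sequenced as paired-end Illumina HiSeq libraries, per the labels' protocols. The authors deposited whole-number counts per gene for 9 libraries, per the file headers; for the aligner, build and strand setting, not given in the sources used here, nothing was assumed, so no coordinates are printed. All libraries entered one edgeR 4.0.16 fit (R 4.3.3) with light as the only term, filterByExpr (minimum count 10, minimum total count 15), TMM scaling, quasi-likelihood tests and Benjamini-Hochberg adjustment over 15469 genes; the common biological coefficient of variation was 17.68%. Low counts favour multiples of 4, so a count may not be 1 fragment. Libraries are numbered in deposition order and pair nothing.

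Members and lists were chosen with earlier results of these data known. Genes named with values by rule are the measured heat-inducible list, members with an unadjusted p under 0.05 and the 8 of smallest p in each comparison. The rules also take the 3 widest and 3 narrowest across libraries and 7 neuronal or retinal members. Hspa4 and Hsp90b1, given with values, meet none of these rules, nor do Hspb7 and the members outside the filter, given with counts. Partner lists give at most 3 genes with values. A planned choice by level per coding length could not be applied, and levels are not compared between genes. Alternatives included DESeq2 1.42.0 and limma 3.58.1, and the fit was tested on simulated data.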

Additional observations from a re-analysis of the deposited data

How the results depend on the processing

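No member passed an adjusted p of 0.05 under any of 21 alternatives to a comparison (20 for the joint test); the smallest adjusted p was 0.390 for green against white, 0.550 for blue against white, 0.105 for green against blue and 0.183 jointly. The median log2 difference of the members for green minus white was -0.048 with pigment epithelium level as a covariate and -0.0781 without both libraries titled -B, and it ranged from -0.0633 to -0.0113 as single libraries were left out; over all alternatives it reached 0.0041. Members at an unadjusted p under 0.05 numbered 0 to 6 for green against white (3 as reported; 0 without green library 3, 6 without white library 3, 5 without both -B libraries). They numbered 0 to 5 for blue against white (2; 0 without blue library 3 or white library 1, 4 without white library 2, 5 without both -B libraries), 2 to 5 for green against blue (3; 5 with DESeq2) and 1 to 6 jointly (1). The 8 member differences with such a p kept their direction in all 21 alternatives. They were picked by their p in these libraries, which the alternatives reuse, so the kept direction is no separate evidence. Their sizes moved: Hspb1 ranged from -0.36 to -0.16 for green minus blue and Dnajb13 from 0.22 to 0.55 for green minus white. Hsp90aa1 stayed between 0.29 and 0.40 for green minus blue and between -0.31 and -0.16 for blue minus white. No paired analysis was possible because the labels give no replicate numbers shared between groups. The median SE of a member, 0.13 in log2 units, comes from a fit that treats libraries as independent. What could pass also depends on the adjustment over 15469 genes: Hsp90aa1, at 0.34 ± 0.09 (SE) for green minus blue, had an adjusted p of 0.578 (edgeR).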
